A study of Mus musculus with 8 samples.

Results

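Collagens and lysyl oxidases, the genes of the fibrous and sheet-like extracellular matrix and of the enzymes that cross-link it, were described on 8 expression arrays of mouse olfactory mucosa. Members were all genes whose single platform symbol names a collagen chain or a lysyl oxidase. This gave 47 of 12488 probe sets and 33 of 8251 named genes: 31 collagen chains and the lysyl oxidases Lox and Loxl1. Each gene was read from its brightest probe set. Of the 33 genes, 25 exceeded a filter value of 362.7 intensity units on at least 2 arrays and were tested, 23 of them collagens, and 8 collagens were too dim.

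Collagens are triple helices of 3 chains in which glycine recurs regularly along each chain. Type I, III and V chains build the fibrils of connective tissue, type II, IX and XI chains those of cartilage, and type IV chains the network of basement membranes. Lysyl oxidases are secreted copper enzymes that oxidise lysine residues of collagen and elastin, which makes the cross-links that stiffen fibrils. In the olfactory mucosa these genes belong mainly to the lamina propria under the epithelium, to its vessels and glands, and to the cartilage and bone on which the mucosa lies.

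The arrays fall into 4 groups of 2. C57BL/6 mice, called wild type here, and mice labelled Ccl3-/- were injected either with carrier or with CCL3, also named MIP-1a, a chemokine that attracts macrophages. All 4 groups, the carrier controls included, come from a bulbectomy experiment in which both olfactory bulbs were taken out, so no unoperated tissue was compared. The series asks how CCL3 acts on macrophage recruitment after that target loss. The labels do not give the age of the mice, the deleted part of Ccl3, the dose, or whether replicates are separate animals, so p-values reflect array-to-array spread alone, part of which may be technical. Median intensity per array was 581.4 to 660.3. Omp, the marker of mature olfactory neurons, was read at 4251 on wild-type carrier replicate 1 and at 8657 to 21779 on the other 7 arrays. Ccl3 itself was read against the genotype labels, at 727 to 812 on the 4 arrays labelled Ccl3-/- and 159 to 386.5 on the 4 wild-type arrays, so groups are named by label and every genotype direction rests on it. Wild-type carrier replicate 1 had a Gapdh 3' to 5' signal ratio of 2.59, against 0.755 to 1.31 on the other 7 arrays, which can be a sign of RNA quality. Its beta-actin 3' to 5' ratio was the lowest, at 1.58 against 1.61 to 2.17. The controls thus differed, and the RNA quality of that array was not settled.

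Lox, the founding lysyl oxidase, was lower on every array from CCL3-injected mice than on every array from carrier-injected mice. Its intensity after carrier was 969 and 930.1 on the wild-type arrays and 1325 and 2413 on the arrays labelled Ccl3-/-. After CCL3 it was 425 and 451 on the wild-type arrays and 388 and 439 on those labelled Ccl3-/-. The groups did not overlap: all 4 CCL3 arrays lay within a narrow band at 426 ± 27.2 (SD, n = 4), and the 4 carrier arrays spread over 1409 ± 692 (SD, n = 4). Averaged over the genotypes, Lox was 2.68-fold lower after CCL3 (log2 -1.42 ± 0.22 SE, n = 4 per group, on the log2 of intensity plus 102.3). It ranked 2 of 8150 probe sets by p in that comparison, and with an adjusted p of 0.261 in limma it did not pass the threshold of 0.05 over all probe sets.

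The CCL3 difference of Lox was estimated in each genotype and then compared between them. It was -0.96 ± 0.30 (SE, n = 2 per group) in the wild type and -1.88 ± 0.30 on the arrays labelled Ccl3-/-, where it had the smallest p of all 8150 probe sets (adjusted p = 0.722 in limma). The interaction, which tests the difference of these differences, was -0.92 ± 0.43 (adjusted p = 0.908 in limma). Without carrier replicate 2 labelled Ccl3-/-, the brightest array for Lox, the interaction was -0.51. After carrier alone, the Lox difference of the Ccl3-/- label from wild type was 0.85 ± 0.30, and 0.44 without that array. After CCL3 the genotypes differed by -0.07 ± 0.30, with a 95% interval from -0.75 to 0.61.

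Lox has another, dimmer probe set, which did not show this pattern. It read 349 and 599.6 on the wild-type carrier arrays, 429 and 124 on the carrier arrays labelled Ccl3-/-, 249 and 497 on the wild-type CCL3 arrays, and 302 and 239.8 on the CCL3 arrays labelled Ccl3-/-. Here the groups overlapped, and the array that was brightest in the first probe set was the dimmest in this one. The CCL3 difference over both genotypes was -0.10 ± 0.34 (SE, n = 4 per group) by this probe set. With the mean of both probe sets the CCL3 difference of Lox was -0.76 in place of -1.42. Which probe set reports the Lox transcript better was not tested.

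Loxl1, a lysyl oxidase known for cross-linking elastic fibres, did not follow Lox. Its intensity was 590 and 860 on the wild-type carrier arrays, 367 and 516 on the carrier arrays labelled Ccl3-/-, 345 and 493 on the wild-type CCL3 arrays, and 486 and 565 on the CCL3 arrays labelled Ccl3-/-. Both wild-type carrier arrays lay above the other 6, and the other 3 groups overlapped. Over both genotypes the CCL3 difference was -0.22 ± 0.23 (SE, n = 4 per group), with a 95% interval from -0.72 to 0.28 that includes 0.

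**Figure D1:**
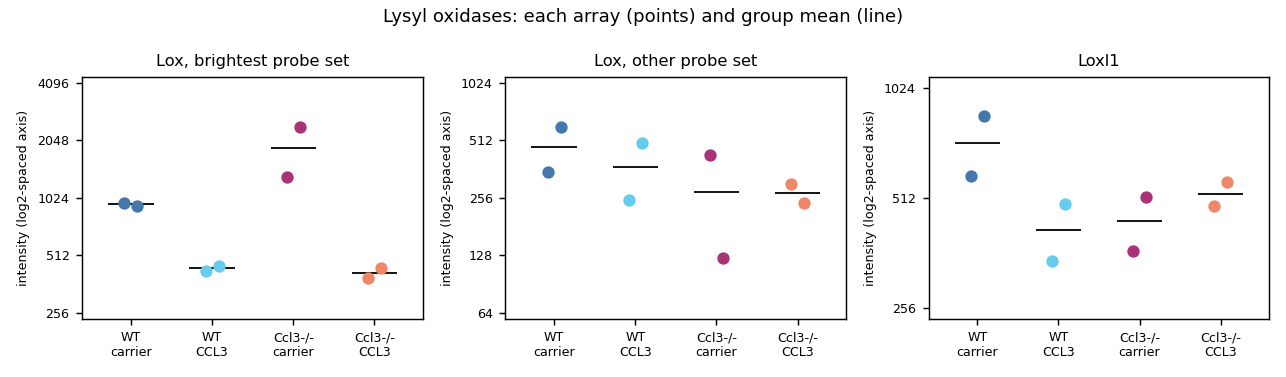
Intensity of the brightest and the other probe set of Lox and of Loxl1 on each of 8 arrays, on a log2-spaced axis. Points are arrays and lines are group means of 2 arrays. In the brightest Lox probe set the 4 CCL3 arrays lie between 388 and 451 and the 4 carrier arrays between 930.1 and 2413. The other panels overlap between injections.

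Many of the collagens were high on the same arrays, and these arrays belonged to different groups. Over the 23 collagens above the filter, the median log2 deviation from each gene's own mean was 0.30 on wild-type carrier replicate 2 and 0.31 on CCL3 replicate 1 labelled Ccl3-/-. It was -0.19 and -0.23 on the 2 carrier arrays labelled Ccl3-/-, and between -0.07 and 0.03 on the other 4 arrays. On wild-type carrier replicate 2, 17 of the 23 collagens lay above their mean, and on CCL3 replicate 1 labelled Ccl3-/- 18 did, against 4 and 6 on the carrier arrays labelled Ccl3-/-. Because this pair of high arrays was picked from the same collagen values, counts on it are description, and no support is drawn from them. The 2 highest arrays were exactly this pair for 11 of 23 collagens (47.8%), against 5.57% of all 6179 genes tested. These 11 included the chains of type I (Col1a1, Col1a2), III (Col3a1), IX (Col9a1, Col9a2, Col9a3) and VI (Col6a1, Col6a2). The replicates of these 2 arrays did not share the high level, so the spread within each of the 2 groups was wide.

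**Figure D2:**
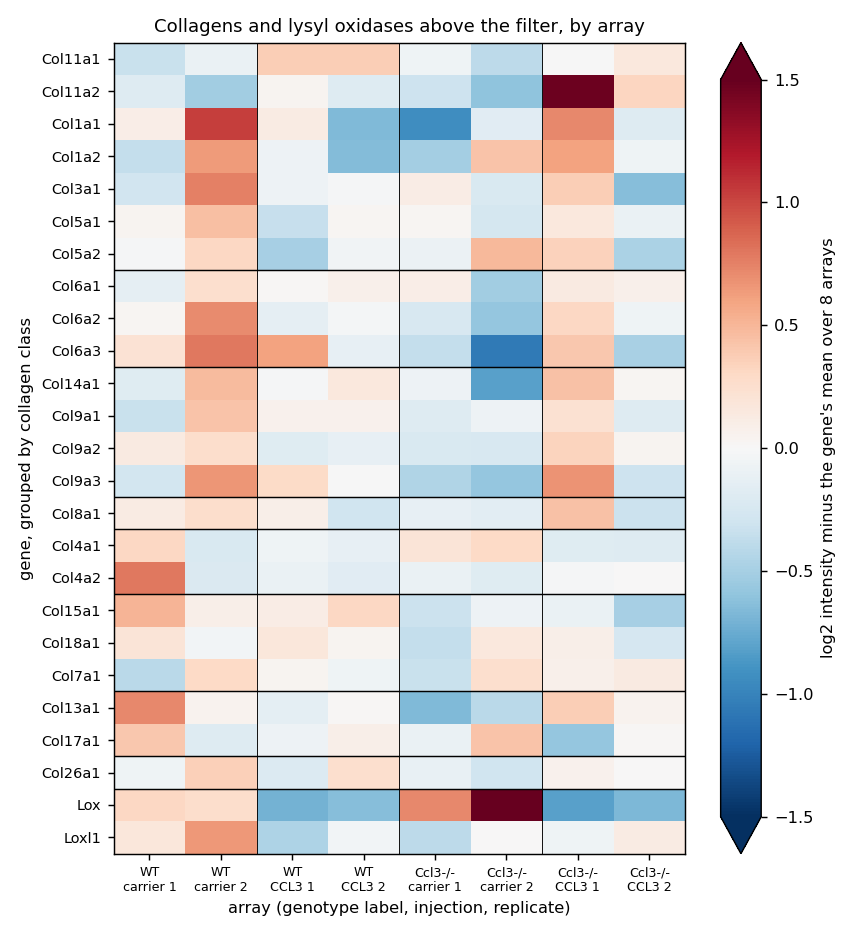
Log2 intensity of the 25 genes above the filter on each of 8 arrays, as the difference from the gene's own mean over the arrays. Rows are genes grouped by collagen class, columns are arrays, red is above and blue below the mean, and colours saturate at 1.5. Wild-type carrier replicate 2 and CCL3 replicate 1 labelled Ccl3-/- are mostly red across fibrillar, type VI and type IX chains, whereas Lox is blue on all 4 CCL3 arrays.

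Type I collagen, the main fibril of bone, tendon and dermis, showed this most plainly. Col1a1, its alpha 1 chain, was read at 8367 and 16088 on the wild-type carrier arrays, 4056 and 6904 on the carrier arrays labelled Ccl3-/-, 8498 and 4881 on the wild-type CCL3 arrays, and 12892 and 6810.2 on the CCL3 arrays labelled Ccl3-/-. After carrier the groups did not overlap, and Col1a1 was 2.17-fold lower on the arrays labelled Ccl3-/- (log2 -1.12 ± 0.44 SE, n = 2 per group, adjusted p = 0.412 in limma). After CCL3 the groups overlapped and the difference was 0.53 ± 0.44. The interaction was 1.65 ± 0.62 (adjusted p = 0.908 in limma). Without wild-type carrier replicate 2 the difference after carrier was -0.65, and without carrier replicate 1 labelled Ccl3-/- it was -0.74. The difference after CCL3 ran from 0.08, without CCL3 replicate 1 labelled Ccl3-/-, to 0.99 with 1 array left out.

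Col1a2, the partner chain of type I collagen, gave different pictures with its 2 probe sets. With the brightest it was read at 4094 and 8308 on the wild-type carrier arrays and at 3691 and 7133 on the carrier arrays labelled Ccl3-/-, which overlapped. After CCL3 it was 5003 and 3334 on the wild-type arrays and 8082 and 5058 on those labelled Ccl3-/-, so each of the latter lay above each of the former. Its difference between genotypes after CCL3 was 0.63 ± 0.43 (SE, n = 2 per group), which was 0.30 without CCL3 replicate 1 labelled Ccl3-/- and 0.35 without wild-type CCL3 replicate 2. The other probe set of Col1a2 read 5722 and 6327 on the wild-type carrier arrays, 4206 and 3139 on the carrier arrays labelled Ccl3-/-, 4246 and 4832 on the wild-type CCL3 arrays, and 3941 and 3564 on the CCL3 arrays labelled Ccl3-/-. There every wild-type array lay above every array labelled Ccl3-/-, and CCL3 replicate 1 so labelled was not high. Its genotype difference was -0.71 ± 0.25 (SE, n = 2 per group) after carrier, against -0.18 ± 0.43 with the brightest, and -0.27 ± 0.25 after CCL3. For Col1a1 the other probe set gave -0.37 ± 0.35 after carrier and -0.08 ± 0.35 after CCL3. So for the genotype difference after CCL3 both genes had probe sets of opposite sign.

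Type III and V chains mix into the same fibrils. Col3a1, abundant in vessels and loose connective tissue, was read at 1233 and 2629 on the wild-type carrier arrays, 1654 and 1284 on the carrier arrays labelled Ccl3-/-, 1436 and 1499.5 on the wild-type CCL3 arrays, and 1997 and 942 on the CCL3 arrays labelled Ccl3-/-. The lowest and the next highest of the 8 values were thus the replicates of 1 group. The type V chains Col5a1 and Col5a2, which help to start fibrils, ranged from 1387 to 2486.5 and from 1566 to 3182 with overlap between the groups. None of these 3 genes was under an unadjusted p of 0.05 in any of the 7 comparisons by limma with its brightest probe set. A dimmer probe set of Col3a1 read 494 and 723 on the wild-type carrier arrays and 340 and 484 on the carrier arrays labelled Ccl3-/-. After CCL3 it read 319 and 300 on the wild-type arrays and 375 and 334 on those labelled Ccl3-/-. A dimmer probe set of Col5a1 read 389 and 424 on the wild-type carrier arrays and 72 to 336 elsewhere. It passed the filter through those 2 arrays alone, so nothing is read from it.

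Type VI collagen forms beaded filaments around cells, and its Col6a2 and Col6a3 chains were low on the carrier arrays labelled Ccl3-/-. Col6a3 was read at 1520 and 2313 on the wild-type carrier arrays, 984 and 563 on the carrier arrays labelled Ccl3-/-, 2008 and 1175 on the wild-type CCL3 arrays, and 1741 and 892 on the CCL3 arrays labelled Ccl3-/-. After carrier it was 2.33-fold lower on the arrays labelled Ccl3-/- (log2 -1.22 ± 0.40 SE, n = 2 per group), the smallest p among the members in that comparison, with an adjusted p of 0.375 in limma. Averaged over both injections it was -0.75 ± 0.28 (SE, n = 4 per group, adjusted p = 0.808 in limma), and the 4 arrays of each genotype overlapped. Col6a2 was read at 1442 and 2364 on the wild-type carrier arrays and at 1180.2 and 908 on the carrier arrays labelled Ccl3-/-, without overlap, a difference of -0.78 ± 0.30. After CCL3 its values were 1267.5 and 1381 in the wild type and 1764 and 1338 on the arrays labelled Ccl3-/-, and its interaction was 0.98 ± 0.42 (adjusted p = 0.908 in limma). Without wild-type carrier replicate 2 the difference of Col6a2 after carrier was -0.44 and its interaction 0.64. Col6a1, the other chain measured, stayed between 2713 and 4696.5, with the lowest value on carrier replicate 2 labelled Ccl3-/- as for Col6a2 and Col6a3. A dimmer Col6a1 probe set went the other way after carrier, without overlap. It read 340 and 323 on the wild-type carrier arrays and 624 and 377 on the carrier arrays labelled Ccl3-/-.

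The start sites of Col6a2 and Col6a3 are shown because these chains were low on the same arrays. Printed are the 100 bases before the annotated start, 5' to 3' on the strand of the gene, from RefSeq (GRCm38.p6), whose table matched 22 of the 33 members and 18 of the 25 above the filter. Capitals would mark 1 of 3 promoter motifs, each searched on both strands. The TATA motif was spelled TATAAA in this search. The CAAT-box motif was spelled CCAAT without flanking letters. The GC-box motif, which Sp1 family factors are known to bind, was spelled GGGCGG. For Col6a2, the more upstream of its annotated starts is used (chr10:76623631-76623730, minus strand), and Col6a3 lies at chr1:90843972-90844071 on the minus strand.
Col6a2: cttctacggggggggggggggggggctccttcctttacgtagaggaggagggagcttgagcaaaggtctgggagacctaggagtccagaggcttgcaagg
Col6a3: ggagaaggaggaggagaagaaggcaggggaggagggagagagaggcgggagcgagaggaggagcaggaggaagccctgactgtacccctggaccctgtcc
Neither window held any of the 3 motifs. The 100 bases before the other annotated start of Col6a2 (chr10:76623405-76623504, minus strand) held the GC-box motif on the opposite strand 67, 15 and 11 bases before that start, the last pair overlapping. Of all 32851 promoters, the same 100 bases held the TATA motif in 5.56%, the CAAT-box motif in 18.9% and the GC-box motif in 24.7%.

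**Figure D3:**
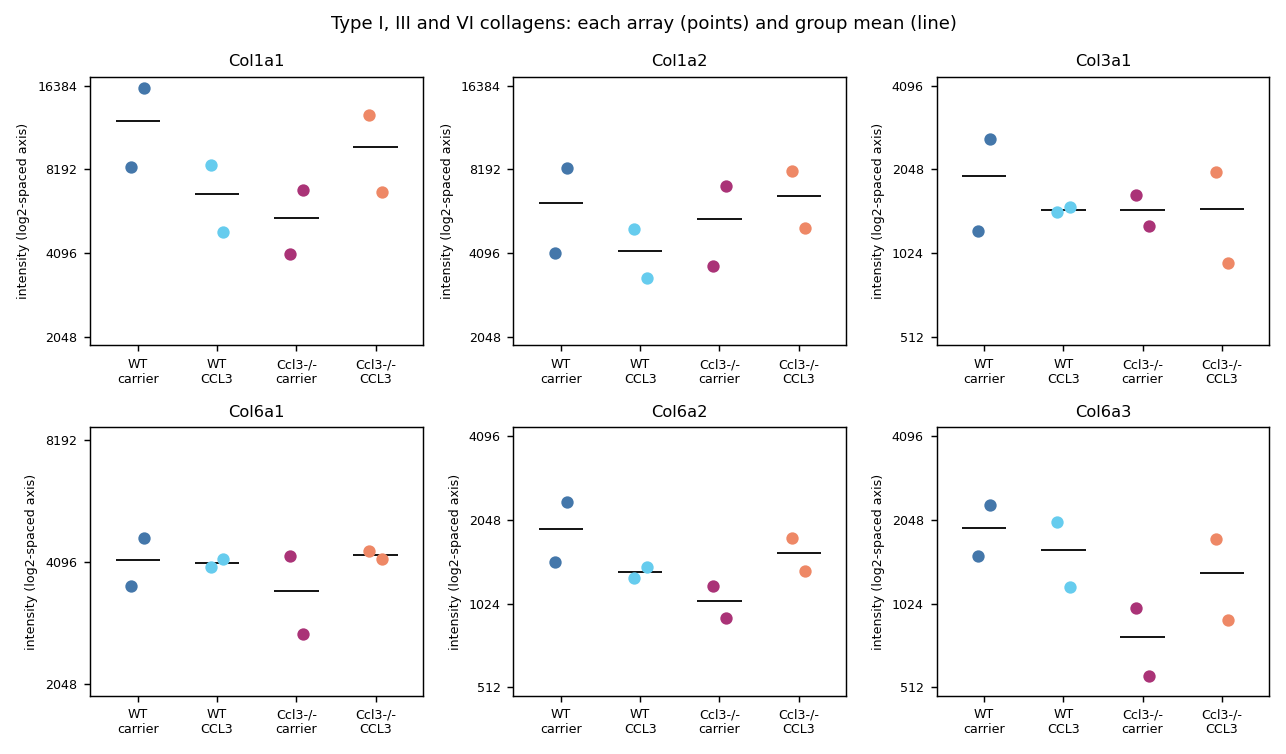
Intensity of type I, III and VI collagen chains on each of 8 arrays, on a log2-spaced axis for each gene. Points are arrays and lines are group means of 2 arrays. For Col1a1, Col6a2 and Col6a3 both carrier arrays labelled Ccl3-/- lie below both wild-type carrier arrays.

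The type XI chains Col11a1 and Col11a2 were the collagens above the filter whose carrier and CCL3 arrays did not overlap. Col11a1, a chain of the thin fibrils that nucleate cartilage collagen, was read at 431 and 528 on the wild-type carrier arrays and 543 and 409 on the carrier arrays labelled Ccl3-/-. After CCL3 it was 765 and 766 on the wild-type arrays and 567.5 and 646 on those labelled Ccl3-/-. All 4 CCL3 arrays lay above all 4 carrier arrays, and the difference over both genotypes was 0.44 ± 0.20 (SE, n = 4 per group, adjusted p = 0.969 in limma).

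Col11a2, the partner chain, was read at 355 and 262 on the wild-type carrier arrays, 320 and 242 on the carrier arrays labelled Ccl3-/-, 435 and 356 on the wild-type CCL3 arrays, and 1346 and 554 on the CCL3 arrays labelled Ccl3-/-. The injections did not overlap here either, though wild-type carrier replicate 1 and wild-type CCL3 replicate 2 were nearly equal. Over both genotypes the difference was 0.82 ± 0.28 (SE, n = 4 per group, adjusted p = 0.969 in limma), and on the arrays labelled Ccl3-/- it was 1.36 ± 0.40 (n = 2 per group, adjusted p = 0.820). Without CCL3 replicate 1 labelled Ccl3-/- these values were 0.53 and 0.78. Col11a2 passed the filter through 3 of the CCL3 arrays alone, so it was chosen for testing by the group in which it was bright.

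Genes whose 4 CCL3 arrays all exceeded the 4 carrier arrays made up 1.73% of all genes tested, and the reverse order 1.1%. Among the members Col11a1 was of the first kind and Lox of the second. Col11a2 was of the first kind too, but it passed the filter through CCL3 arrays alone, so nothing is read from its place in this count. The same holds for genotype, where Col15a1 was lower on all 4 arrays labelled Ccl3-/- but passed the filter through the 4 wild-type arrays alone. Such genes made up 1.73% of all genes in that direction and 1.38% in the other.

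Most cartilage markers, among them Acan, Mia and Snorc but not Chad, were highest on the same array as Col11a2. The array held 8 of 12 listed cartilage markers, and 4 of them exceeded the filter. Acan, the large proteoglycan of cartilage, was read at 101 and 958 on the wild-type carrier arrays, 435 and 397 on the carrier arrays labelled Ccl3-/-, 710 and 819 on the wild-type CCL3 arrays, and 2560 and 1177 on the CCL3 arrays labelled Ccl3-/-. Mia, a protein secreted by chondrocytes, was highest on the same array, at 1474, as was Snorc, at 741. Of the markers below the filter, Matn1 (479), Matn3 (179.6) and Epyc (184) were also highest there, and Hapln1 was not. Chad, a cartilage matrix protein, was not highest on that array, where it was read at 1421. It was 1673 on the other CCL3 array labelled Ccl3-/- and 979 and 882 on the carrier arrays so labelled. On the 4 wild-type arrays Chad was read at 1283 to 1696.5. The summed intensity of the 8 markers was 2853 and 4137 on the wild-type carrier arrays, 2744 and 2379 on the carrier arrays labelled Ccl3-/-, 3455 and 4115 on the wild-type CCL3 arrays, and 7135 and 4339.8 on the CCL3 arrays labelled Ccl3-/-. Of the CCL3 differences over both genotypes, 4 of the 4 tested markers were positive, against 52.4% of all genes, with a median of 0.51, and that of Acan was 1.37 ± 0.45. The part of cartilage content in the type XI values was not tested. In whole tissue, fewer cells of a type and less RNA per cell cannot be told apart, here and for every gene.

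Type IX chains, which decorate cartilage fibrils, were also high on CCL3 replicate 1 labelled Ccl3-/-, though as high on wild-type carrier replicate 2. Col9a3 was read at 1970.1 and 1999 on these arrays and between 776.5 and 1499 on the other 6. Col9a2 was read at 1544 and 1690 on the wild-type carrier arrays, 1178 and 1169.5 on the carrier arrays labelled Ccl3-/-, 1214.5 and 1267 on the wild-type CCL3 arrays, and 1779 and 1442 on the CCL3 arrays labelled Ccl3-/-. In each genotype the 2 groups were apart, in opposite directions, and its interaction was 0.77 ± 0.33 (SE, adjusted p = 0.908 in limma). Col2a1, the main cartilage fibril chain, was below the filter on all arrays, at 112 to 328.5, with its 2 highest values on the CCL3 arrays labelled Ccl3-/-.

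The windows before the starts of the type XI genes are shown because these chains were the members higher on all CCL3 arrays. For Col11a2 this is description only, since it passed the filter through CCL3 arrays alone. Col11a1 lies at chr3:114030440-114030539 and Col11a2 at chr17:34039038-34039137, both on the plus strand, with motif matches in capitals as defined above.
Col11a1: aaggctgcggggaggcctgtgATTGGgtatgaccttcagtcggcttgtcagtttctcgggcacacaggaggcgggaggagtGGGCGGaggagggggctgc
Col11a2: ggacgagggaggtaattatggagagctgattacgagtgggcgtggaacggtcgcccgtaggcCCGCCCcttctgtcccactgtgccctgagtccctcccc
Col11a1 held a CAAT box on the opposite strand, 79 bases before the start, and a GC box 19 bases before it. Col11a2 held 1 GC box, on the opposite strand, 38 bases before the start. Matches are letters only and were not tied to any factor.

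**Figure D4:**
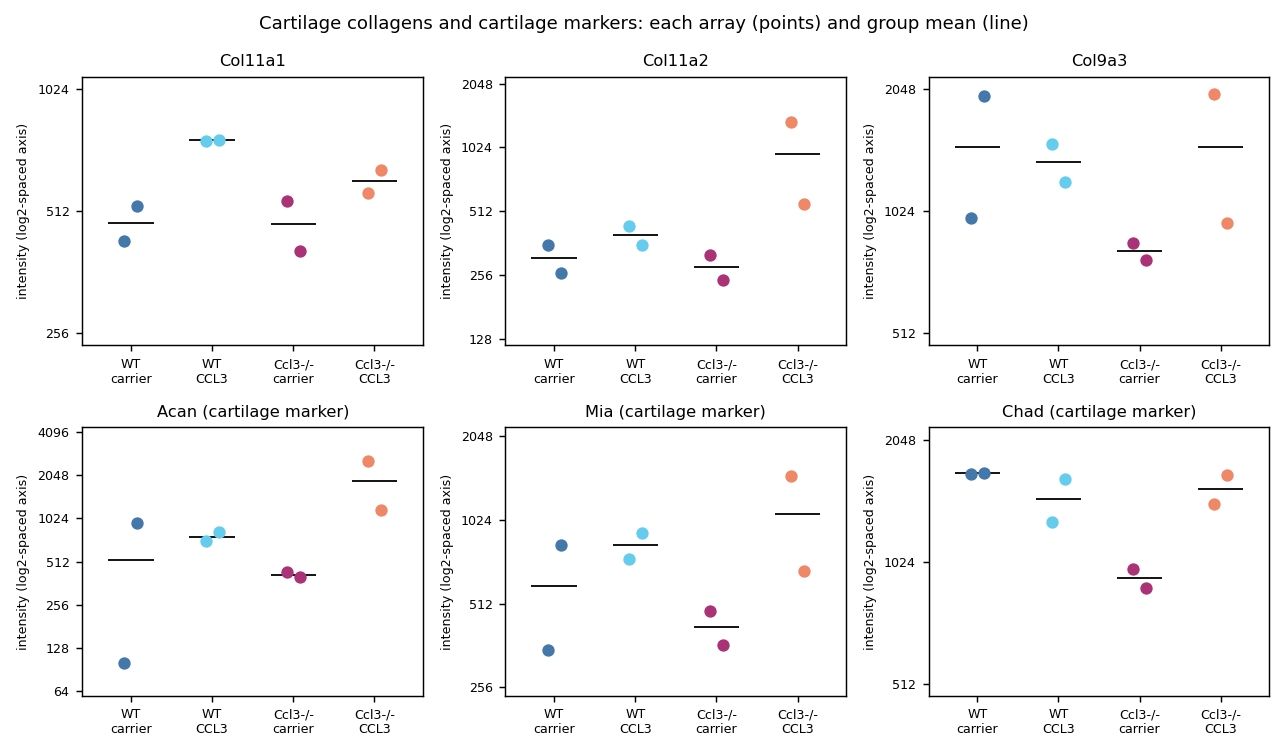
Intensity of Col11a1, Col11a2 and Col9a3 and of the cartilage markers Acan, Mia and Chad on each of 8 arrays, on a log2-spaced axis for each gene. Points are arrays and lines are group means of 2 arrays. CCL3 replicate 1 labelled Ccl3-/- is the highest array for Col11a2 (1346), Acan (2560) and Mia (1474), and Col11a1 is highest on the wild-type CCL3 arrays (765 and 766).

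The type IV chains of basement membranes were highest on another array than most fibrillar chains. Col4a1 and Col4a2 together form the common type IV network, their RefSeq starts lie 21 bases apart on opposite strands, and both were highest on wild-type carrier replicate 1. Col4a1 was read at 1997 and 1345 on the wild-type carrier arrays and between 1378 and 1980.3 on the other 6. Col4a2 was read at 3747 on wild-type carrier replicate 1, the array with the high Gapdh 3' to 5' ratio, and between 1810.3 and 2139 on the other 7. Its interaction of 0.55 ± 0.45 (SE) was 0.05 without that array.

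Chains of the basement membrane zone were Col7a1, of anchoring fibrils, Col15a1 and Col18a1, the precursor of endostatin. Col15a1 was read at 539 and 376.5 on the wild-type carrier arrays, 258 and 325 on the carrier arrays labelled Ccl3-/-, 387 and 456 on the wild-type CCL3 arrays, and 318 and 216.5 on the CCL3 arrays labelled Ccl3-/-. Every wild-type array lay above every array labelled Ccl3-/-, though no limma comparison of Col15a1 reached an unadjusted p of 0.05. Col18a1 stayed between 2023 and 3008.5 and Col7a1 between 1108 and 1883, with overlap between the genotypes and between the injections.

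Transmembrane chains were Col13a1, found at cell adhesion sites, and Col17a1, of the hemidesmosomes of basal epithelial cells. Col13a1 was read at 530.4 and 296.5 on the wild-type carrier arrays, 139.5 and 188 on the carrier arrays labelled Ccl3-/-, 245 and 287 on the wild-type CCL3 arrays, and 393 and 297 on the CCL3 arrays labelled Ccl3-/-. After carrier it was 0.92 ± 0.38 (SE, n = 2 per group) lower on the log2 scale under the Ccl3-/- label (adjusted p = 0.424 in limma), and only 2 of 8 arrays exceeded the filter. Without wild-type carrier replicate 1, the array with the high Gapdh ratio, the difference was -0.59. Col17a1 ranged from 548 on CCL3 replicate 1 labelled Ccl3-/- to 1205 on carrier replicate 2 so labelled.

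The remaining members above the filter were Col14a1, a fibril-associated chain, at 172 to 567, Col8a1, of vessel wall and subendothelial networks, at 678 to 1221, Col9a1 at 1511 to 2634, and Col26a1 at 431 to 741. Below the filter, besides Col2a1, were Col10a1, the chain of hypertrophic cartilage, at 68.0 to 317, and the type IV chains Col4a3, Col4a4 and Col4a5 of specialised basement membranes, at 11.1 to 88.5, 31.5 to 68.2 and 72.1 to 369. Col12a1 (131 to 532), Col19a1 (111 to 495) and Col22a1 (13.1 to 39.0) were dim too. Of these 8 genes, Col12a1 and Col19a1 exceeded the filter on 1 array, wild-type carrier replicate 2, and Col4a5 on 1 array, wild-type CCL3 replicate 2.

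In none of the 7 comparisons did any member pass an adjusted p of 0.05 in limma, nor did any of the 8150 probe sets (0% called in each, with 121 to 932 probe sets under an unadjusted p of 0.05). When wild-type carrier replicate 2 was left out, 110 probe sets passed for genotype after carrier, 73 for CCL3 in the wild type and 23 for CCL3 over both genotypes, and no member was among them. The counts at an unadjusted p under 0.05 were read against the share of all 6179 genes. For genotype after carrier, 5 of 25 members (20%) were under it against 10.8% of all genes: 4 lower, Col1a1, Col6a2, Col6a3 and Col13a1, against 6.02%, and 1 higher, Lox, against 4.79%. For genotype after CCL3, the 1 member under it was Col11a2 (background 1.29%, and 0.664% in the higher direction). Because Col11a2 passed the filter through CCL3 arrays alone, nothing is read from this count or from its share in the CCL3 counts that follow. For CCL3 against carrier there were 2 members on the arrays labelled Ccl3-/-, Col11a2 higher and Lox lower (background 4.82%, of which 2.72% higher and 2.1% lower), and 1 in the wild type, Lox lower (4% against 3.93%, of which 1.96% lower). Averaged over both genotypes there were 3, Col11a1, Col11a2 and Lox (background 4.55%, of which 2.44% higher and 2.1% lower). The genotype average gave 1, Col6a3 lower (4% against 5.2%, of which 2.41% lower). The interaction gave 3, Col1a1, Col6a2 and Col9a2, all higher (12% against 4.79%, of which 2.95% higher).

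The family leaned towards lower values after carrier on the arrays labelled Ccl3-/-, and this lean was described, not tested. There 20 of 25 estimates were negative (80%), against 51.6% of all genes, with a median of -0.34 against -0.02 over all genes. After CCL3 the median genotype difference was 0.12, against 0.01 over all genes, and 16 of 25 estimates were positive (64%), against 52.4%. That median was 0.00256 without CCL3 replicate 1 labelled Ccl3-/-, 0.07 without wild-type CCL3 replicate 1 and 0.19 without CCL3 replicate 2 labelled Ccl3-/-. The median interaction was 0.50, against 0.03 over all genes, with 19 of 25 positive (76%, against 52.1%). With the 2 arrays on which most collagens peaked left out together, it was 0.10, a setting added after seeing the data. Without wild-type carrier replicate 2 alone it was 0.29, and without CCL3 replicate 1 labelled Ccl3-/- alone 0.30. The CCL3 median was -0.27 in the wild type and 0.22 on the arrays labelled Ccl3-/-, against -0.01 and 0.03 over all genes. Without wild-type carrier replicate 2 the first was -0.12, and without CCL3 replicate 2 labelled Ccl3-/- the second was 0.35. In the wild type 20 of 25 were negative (80%, against 50.8%), and on the other arrays 19 of 25 were positive (76%, against 54%). These comparisons share arrays with each other, and the members' estimates are not independent of each other.

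**Figure D5:**
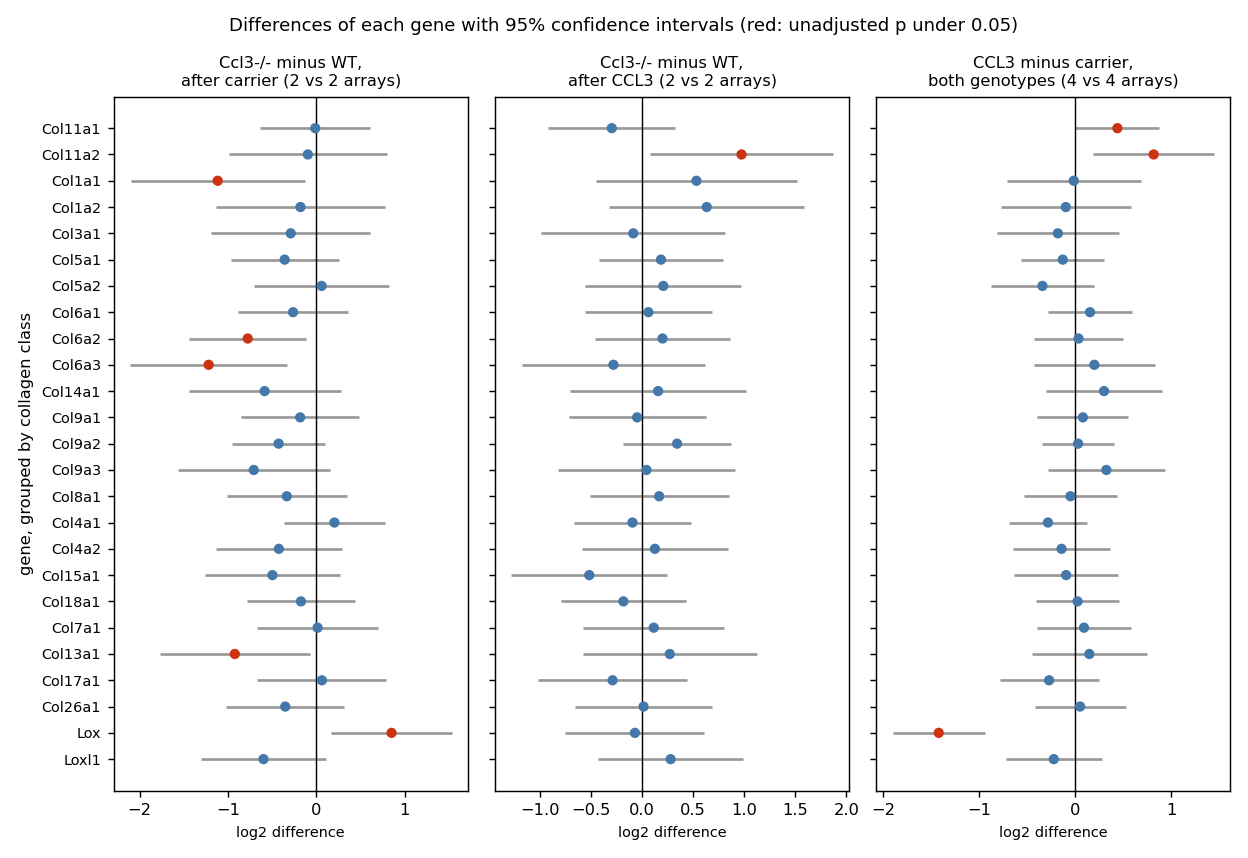
Log2 differences of the 25 genes above the filter for 3 comparisons, with 95% confidence intervals from limma. Points in red are under an unadjusted p of 0.05 and none passes after adjustment. After carrier, Col1a1, Col6a2, Col6a3 and Col13a1 lie to the left and Lox to the right of 0; for CCL3 against carrier Lox lies at -1.42.

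Genes that make and process collagen gave 1 gene under an unadjusted p of 0.05 for genotype after carrier, where 10.8% of all genes were. The array held 14 of 27 listed genes, of which 13 were tested. After carrier, Bmp1, the protease that removes procollagen ends, was at -0.71 ± 0.29 (SE, n = 2 per group) on the arrays labelled Ccl3-/-, with a list median of -0.31 against -0.02 over all genes, and 8 of 13 negative, against 51.6%. Serpinh1, the collagen chaperone HSP47, was read at 1851 to 5987, with its highest value on CCL3 replicate 1 labelled Ccl3-/-.

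Among 16 tested fibril-associated matrix proteins, 3 were lower and 0 higher at an unadjusted p under 0.05 for genotype after carrier, against 6.02% and 4.79% of all genes. Fmod, a small proteoglycan that binds type I fibrils, was at -1.28 ± 0.40 (SE, n = 2 per group). It was read at 2332 and 2151 on the wild-type carrier arrays and 593 and 1236 on the carrier arrays labelled Ccl3-/-, without overlap. Bgn, a related proteoglycan, was at -0.70 ± 0.28 and Fbln1, a matrix glycoprotein, at -0.70 ± 0.31. For the genotype average, another comparison, 1 of the 16 was higher and 1 lower at that p, against 2.78% and 2.41% of all genes. Sparc, a collagen-binding matricellular protein, was at 0.96 ± 0.40 there (n = 4 per group), and Mfap4 at -0.47 ± 0.20. Of 12 tested laminins and other basement membrane partners, 1 was under that p for genotype after CCL3, where 1.29% of all genes were, 0.664% in the higher direction. It was Hspg2, which encodes perlecan, at 1.07 ± 0.31. Of 4 tested collagen receptors 1 was lower at that p for genotype after carrier, against 6.02% of all genes: Ddr2, at -0.94 ± 0.36. None of these passed over all probe sets in limma.

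Genes listed for TGF-beta signalling, a pathway known to induce collagen and Lox, pointed both ways. Of 17 on the array, 13 were tested, and for CCL3 against carrier over both genotypes 1 was higher and 2 lower at an unadjusted p under 0.05, against 2.44% and 2.1% of all genes. Ccn2, which encodes connective tissue growth factor, was at -1.03 ± 0.38 (SE, n = 4 per group). It was read at 8275 and 2062 on the wild-type carrier arrays, 6659.5 and 8205 on the carrier arrays labelled Ccl3-/-, 2260.5 and 2629 on the wild-type CCL3 arrays, and 2188 and 3866.5 on the CCL3 arrays labelled Ccl3-/-. The injections overlapped through wild-type carrier replicate 2. Ltbp3, a binding protein of latent TGF-beta, was at 0.75 ± 0.21, and Ccn1, a relative of Ccn2, at -0.54 ± 0.24. For Ltbp3 the CCL3 difference was 1.55 ± 0.30 (n = 2 per group) on the arrays labelled Ccl3-/-. Its interaction was 1.58 ± 0.42 (adjusted p = 0.908 in limma). It read 797 and 720 on the wild-type carrier arrays and 624 and 863 on the wild-type CCL3 arrays, which overlapped. The arrays labelled Ccl3-/- read 321 and 242 after carrier and 1213 and 842 after CCL3. After carrier its genotype difference was -1.17 ± 0.30.

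Marker lists of fibroblasts, bone and smooth muscle were mixed. Fibroblast markers (9 tested of 12 on the array) had a summed intensity of 31391 and 26825 on the wild-type carrier arrays and 31564 and 32542 on the CCL3 arrays labelled Ccl3-/-, and ranged from 24887 to 36568 over all 8 arrays, with neither of the 2 arrays highest in type I collagen at the top. Dcn, at 14571 to 23710, made up most of that sum. For genotype after carrier, Thy1 and Fbln1 were at -0.99 ± 0.44 and -0.70 ± 0.31 (SE, n = 2 per group), the direction of Col1a1 and Col6a3. By limma these 2 of the 9 tested markers had an unadjusted p below 0.05, against 6.02% of all genes in that direction. As a set the fibroblast markers did not lean that way. Their median genotype difference after carrier was 0.09, with 5 estimates positive and 4 negative. Bone markers (5 tested of 6 on the array) summed to 4694 and 4656 on the wild-type carrier arrays, 5049.8 and 6368 on the carrier arrays labelled Ccl3-/-, 3123 and 4718 on the wild-type CCL3 arrays, and 3924 and 3422 on the CCL3 arrays labelled Ccl3-/-. Ibsp, bone sialoprotein, was highest on the carrier arrays labelled Ccl3-/-, at 3258 and 3091, and at 442 to 1736.5 on the other 6. Dlx5 and Alpl, other osteoblast genes, went the other way after carrier, at -1.01 ± 0.30 and -0.65 ± 0.27, against 1.67 ± 0.47 for Ibsp. Smooth muscle markers (7 tested of 7 on the array) summed to 17672 and 31516 on the wild-type carrier arrays and 40336 and 27568 on the CCL3 arrays labelled Ccl3-/-, with 21081 and 32738 on the carrier arrays so labelled and 33195 and 20721 on the wild-type CCL3 arrays. Other lists are given by the sign of their genotype estimates after carrier. Of 9 tested endothelial markers 7 were negative and 2 positive, against 51.6% and 48.4% of all genes. Horizontal basal cell markers were positive for 4 and negative for 1. Olfactory neuron markers were positive for 2 and negative for 2, and sustentacular and gland markers were positive for 4 of 4. The part of any of these lists in the collagen values was not tested.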

How the data were processed

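The data are 8 Affymetrix arrays of mouse olfactory mucosa in 4 groups of 2, with 12488 probe sets each. The authors deposited 1 linear signal intensity per probe set and array. The software that made it is not given in the sources used here, and trimmed array means were already alike. Values were taken as log2(intensity + 102.3), where 102.3 is the 20th percentile of the table, without further normalization. This compresses differences of dim genes. Probe sets above 362.7, the 40th percentile, on at least 2 arrays were kept, and 66 control probe sets were left out, which left 8150. Gene names come from the platform annotation: 10833 probe sets have 1 symbol and 396 several, and only the former were named. Differences were tested with limma 3.58.1 in R 4.3.3 (intensity trend, 4 residual degrees of freedom, all 8 arrays in 1 fit), with Benjamini-Hochberg adjustment over all 8150 probe sets, after a test on simulated data. Differences of genotype are Ccl3-/- label minus wild type, and of injection CCL3 minus carrier. The number of arrays limits the precision. Every member is named. Genes followed under other settings were Col1a1, Col1a2, Col3a1, Col4a1, Col4a2, the lysyl oxidases and members under an unadjusted p of 0.05 in any comparison. Of their differences, those at that p or over 0.5 in size on the log2 scale were followed, and all of Lox. The members and gene lists were chosen with earlier results of these data known. Alternatives were pseudocount, filter, quantile normalization, variance trend, probe set rule, a replicate block and leaving out each array. Promoter sequences are from RefSeq, GRCm38.p6.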

Additional observations from a re-analysis of the deposited data

How the results depend on the processing

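No member passed an adjusted p of 0.05 under any setting run. A gene difference was labelled the same if its sign and its side of that threshold held, whatever its size. A count was labelled the same within a fixed ratio of its main value. A median was so labelled within 0.14 of its main value, whatever its sign. By these rules 958 recomputed values were the same, 59 moved and 2 reversed. Only gene differences could be labelled reversed, and both such labels were of Lox. Its genotype average was -0.055 with the mean of all probe sets. Its genotype difference after CCL3 ran from -0.14 to 0.00256 with 1 array left out, the latter without CCL3 replicate 1 labelled Ccl3-/-. The member median of the CCL3 average changed sign without such a label. It was 0.03 in the main fit and ran from -0.08 to 0.10 with 1 array left out. Members at an unadjusted p under 0.05 with quantile normalization were 0 for genotype after CCL3 and 2 for CCL3 in the wild type. With the filter at the 60th percentile they were 0 for genotype after CCL3, 1 for CCL3 on the arrays labelled Ccl3-/- and 1 for the CCL3 average. Without the intensity trend they were 2 for CCL3 in the wild type and 2 for the genotype average. With the mean of all probe sets they were 3 for genotype after carrier. The interaction median was 0.33 with no filter. With the replicate block the interaction had 1 member, and 1 probe set passed for genotype after carrier, 1 for the genotype average and 1 for the CCL3 average. The replicate numbers were not treated as pairs, since correlations of replicate deviations between groups ran from -0.16 to 0.18. With both arrays on which most collagens peaked left out, a setting added after seeing the data, members were 2 for genotype after carrier, 0 for genotype after CCL3, 1 for CCL3 on the arrays labelled Ccl3-/-, 2 for CCL3 in the wild type (median -0.12), 1 for the interaction (median 0.10), 2 for the genotype average and 1 for the CCL3 average. Leaving out 1 array at a time, members ran from 1 to 6 for genotype after carrier, 0 to 1 after CCL3, 1 to 5 for CCL3 on the arrays labelled Ccl3-/-, 1 to 4 in the wild type, 0 to 5 for the interaction, 0 to 2 for the genotype average and 1 to 5 for the CCL3 average. Probe sets past the adjusted threshold then ran from 0 to 110, 0 to 1, 0 to 1, 0 to 73, 0 to 0, 0 to 1 and 0 to 23 in the same order. Member medians ran from -0.49 to -0.24 for genotype after carrier, from -0.37 to -0.12 for CCL3 in the wild type and from 0.29 to 0.68 for the interaction. Lox after CCL3 over both genotypes ran from -1.62 to -1.22 with 1 array left out and from -1.57 to -0.76 under the other settings, at adjusted p of 0.0678 to 0.999 in limma. The cause of each change was not tested.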
